A study of Homo sapiens with 12 samples.

Results

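SF3A1, SF3A2, SF3A3, SF3B1, SF3B2, SF3B3, SF3B4, SF3B5, PHF5A and U2AF2 encode proteins that select the 3′ end of an intron for splicing. These 10 genes were chosen by symbol from the 26334 gene rows of the count tables. No cutoff on a measured value was used, but earlier results of these data were known when they were chosen. All 10 were among the 15352 genes that passed the filter on low counts. RNA was sequenced from A549 cells, a human lung adenocarcinoma line, that had been infected with lentivirus and selected for 4 days with puromycin at 1 µg/ml. The infected cells carried a control short hairpin RNA (shControl) or a hairpin against RNF113A (shRNF113A), and each was left untreated or given Cisplatin for 20 h, at 25 µg/ml according to the labels. Each of the 4 conditions had 3 replicates, so that every library, control or not, came from infected and puromycin-selected cells. The paper writes its Cisplatin concentrations as micromolar, so the unit used for these libraries is uncertain. The paper's methods call the replicates biological, while the labels state neither the hairpin used nor whether replicates came from separate cultures. The p-values set differences against the spread between these libraries only.

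During splicing, U2AF2, the large subunit of U2AF, binds the pyrimidine-rich tract that precedes the AG at the end of an intron. The U2 small nuclear ribonucleoprotein (snRNP) then pairs with the branch point upstream of that tract, and its SF3A and SF3B protein complexes hold it there. SF3A1, SF3A2 and SF3A3 form SF3A. SF3B1 is the scaffold of SF3B, in which PHF5A lies beside it near the branch adenosine, SF3B2 and SF3B4 contact RNA upstream of the branch point and each other, and SF3B3 and SF3B5 bind SF3B1 in the core of the complex. RNF113A, the gene targeted by the hairpin, encodes a RING and zinc finger protein of the activated spliceosome, and Cisplatin is a platinum drug that crosslinks DNA. In hg19 the SF3A genes lie at chr22:30727977-30752936 (SF3A1, minus strand), chr19:2236520-2248678 (SF3A2, plus) and chr1:38422647-38456593 (SF3A3, minus). Those of SF3B lie at chr2:198254508-198299815 (SF3B1, minus), chr11:65818200-65836779 (SF3B2, plus), chr16:70557691-70608820 (SF3B3, plus), chr1:149895209-149900236 (SF3B4, minus), chr6:144416018-144416754 (SF3B5, minus) and chr22:41855721-41864729 (PHF5A, minus), and U2AF2 at chr19:56165512-56186081 (plus).

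The transcripts of these genes carry the signals that their own proteins read. Sequences are given for the alternative acceptors of SF3B2, the alternative donors of U2AF2 and PHF5A, and both ends of intron 6 of SF3A2. Some of the splicing results further on turn on these sites. More than 1 splice form was also measured at other sites of the members, among them exons of SF3B1, SF3B3 and U2AF2, for which no sequence is given. The events described were chosen after their values were seen. Sequences are from GRCh37, the hg19 build of the deposited files, with the invariant bases of the intron in capitals and with 20 intronic bases before and 3 exonic bases after the boundary at an acceptor, or 3 exonic and 6 intronic bases at a donor. SF3B2 has 3 pairs of acceptors that lie 3 nt apart, at the coding exons 5, 7 and 20 of its 22-exon reference transcript, so that the choice adds or removes 3 nt of coding sequence.
SF3B2 exon 5, long form, chr11:65822986-65823008, plus strand: aacttgttttcttttttaAGcag
SF3B2 exon 5, short form, chr11:65822989-65823011, plus strand: ttgttttcttttttaagcAGgga
SF3B2 exon 7, long form, chr11:65824717-65824739, plus strand: ttctttttcccgtctcttAGtag
SF3B2 exon 7, short form, chr11:65824720-65824742, plus strand: tttttcccgtctcttagtAGctg
SF3B2 exon 20, long form, chr11:65835397-65835419, plus strand: gatcccattgtccttcgcAGaag
SF3B2 exon 20, short form, chr11:65835400-65835422, plus strand: cccattgtccttcgcagaAGtga
U2AF2 exon 10 can end at either of 2 donors 12 nt apart, and the donor of the long form begins with GC in place of GT. Of 144 distinct introns of the members in the deposited annotation, 143 run from GT to AG, and the GC donor of U2AF2 begins the other one.
U2AF2 exon 10, short form, chr19:56180533-56180541, plus strand: ctgGTgagc
U2AF2 exon 10, long form, chr19:56180545-56180553, plus strand: ccgGCacgt
SF3A2 has a 79-nt intron 6 that is measured as retained or removed, and the donor and acceptor of that intron are shown for this reason.
SF3A2 intron 6 donor, chr19:2246799-2246807, plus strand: cagGTgaga
SF3A2 intron 6 acceptor, chr19:2246861-2246883, plus strand: acccggccgtgtccctgcAGatt
PHF5A exon 2 can end at a donor used by the coding transcript or at a donor 104 nt further into the intron, which is not part of that transcript.
PHF5A exon 2, short form, chr22:41864122-41864130, minus strand: aatGTgagt
PHF5A exon 2, long form, chr22:41864018-41864026, minus strand: gaaGTatgt

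The libraries held 33859097 to 56071514 read pairs, of which 26220526 to 45721152 were assigned to genes. Read pairs counted as lying on no gene feature are only a part of the unassigned pairs. Their share of all pairs was 4.55% to 6.78% in the shControl libraries and 5.40% to 6.42% in untreated shRNF113A libraries. It was 9.05% to 9.62% in Cisplatin-treated shRNF113A libraries. RNF113A itself was at 725 ± 17.1 normalized counts (SD, n = 3) in untreated shControl cells and 580 ± 28.8 in untreated shRNF113A cells, a log2 fold change of -0.31 (SE 0.09, edgeR adjusted p = 0.0247). In Cisplatin-treated cells its counts were 1063 ± 74.4 and 939 ± 100.4, and the difference did not pass the test (log2 fold change -0.14, adjusted p = 0.233). The A549 and epithelial markers KRT8, KRT18, AKR1B10, ALDH1A1 and NQO1 were all at 31171 normalized counts or more in every library, CDKN2A, which A549 cells lack, was listed at 0 in all 12, and the leukocyte marker PTPRC and the endothelial marker PECAM1 did not exceed 5 and 11. The fibroblast marker COL1A1 ranged from 121 to 1269, with the highest value in untreated shControl replicate 2.

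That replicate stood apart for several members, and so did its Cisplatin-treated counterpart. SF3B1 in shControl replicate 2 was at 56.0% of the mean of replicates 1 and 3 without Cisplatin and at 51.8% with it, a lower ratio than in all but 2.36% and 1.06% of 9779 well-expressed genes. SF3A3 was at 68.8% and 74.9%, whereas PHF5A was at 104% and 132%. The part of COL1A1-expressing cells or of any other difference of these libraries was not tested. Member calls of expression and intronic reads that changed without both are given both ways. Levels per kilobase, SDs over the libraries, profile likeness and splicing levels are given only with them.

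Expressed per kilobase of exon, so that genes can be set side by side, U2AF2 had the highest level of the 10 in all 4 conditions and SF3A2 the lowest. In such bulk RNA, fewer cells with a transcript and less of it in each cell cannot be told apart. In untreated shControl cells U2AF2 was at 134 ± 25.8 counts scaled to library size per kilobase (CPM per kb), and SF3B5 followed at 124 ± 7.5, with overlapping libraries. SF3B2 at 97.9 ± 12.8 and SF3B4 at 74.0 ± 9.33 came next, each apart from its neighbours in every library. The other genes lay lower and closer together, in the order PHF5A at 46.0 ± 1.39, SF3B1 at 40.9 ± 13.1, SF3B3 at 37.2 ± 3.35, SF3A3 at 33.9 ± 6.72, SF3A1 at 25.5 ± 4.83 and SF3A2 at 21.5 ± 3.10 CPM per kb, and each of these overlapped its neighbour. Levels of subunits of the same complex were thus unequal per kilobase: SF3B5 was at 124 and SF3B3 at 37.2 CPM per kb, although both belong to the core of SF3B. The length used was that of all annotated exons of a gene together, 737 nt for SF3B5 and 7678 nt for SF3B3. These levels and their order depend on that length. In Cisplatin-treated shRNF113A cells SF3B4 stood in the second place at 125 ± 18.3 CPM per kb, with libraries that overlapped those of SF3B2 at 118 ± 5.63. SF3A3 stood in place 8 in both untreated groups and in place 5 in both Cisplatin-treated groups. It was at 53.8 ± 8.65 CPM per kb in treated shControl and 44.8 ± 0.49 in treated shRNF113A cells.

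**Figure D1:**
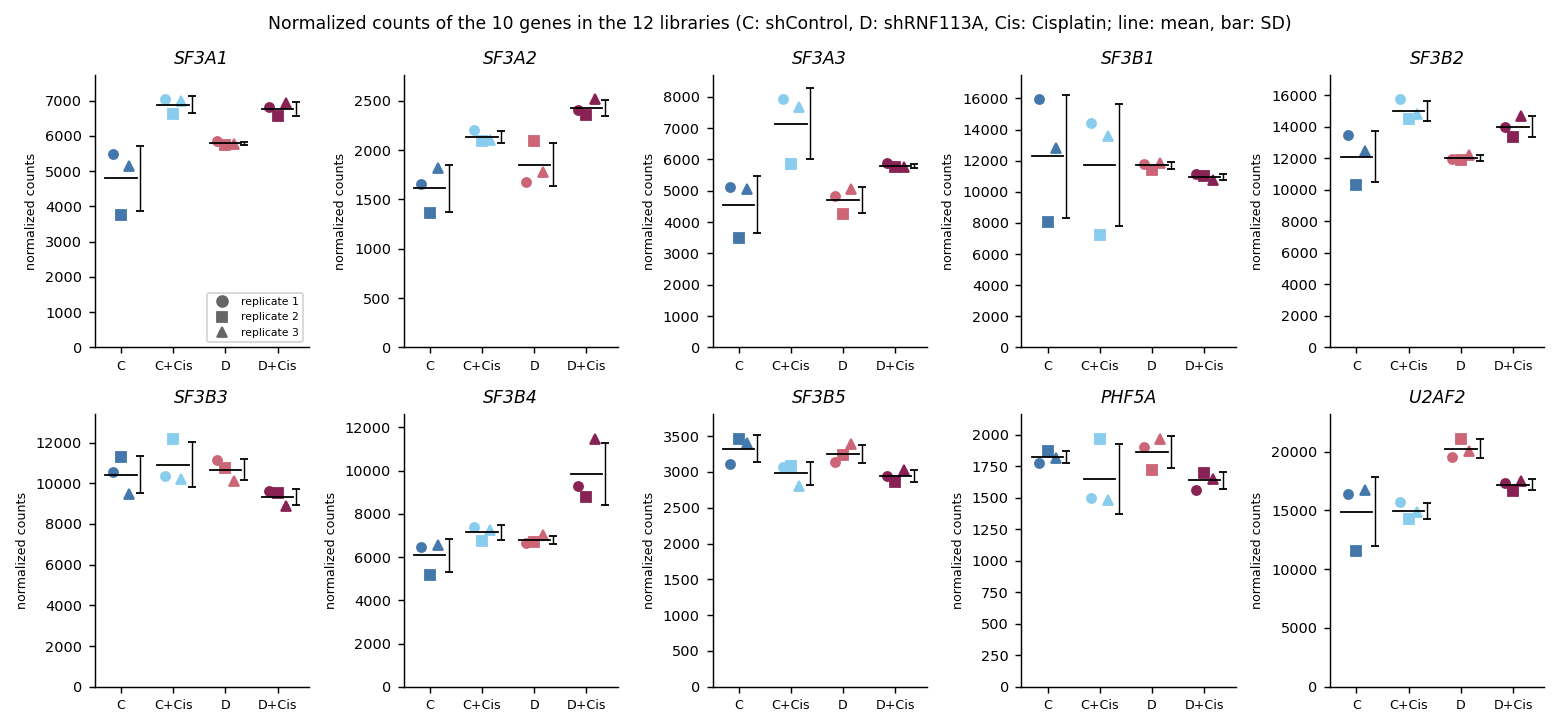
Normalized counts (y axis, from 0) of each of the 10 genes in the 4 conditions (x axis), with a symbol per replicate, a line at the mean and a bar of 1 SD at its right. SF3A1, SF3A2, SF3A3 and SF3B2 lie higher with Cisplatin in both cell populations, SF3B4 is highest in Cisplatin-treated shRNF113A cells, U2AF2 is highest in untreated shRNF113A cells, and the square of shControl replicate 2 lies far below the other symbols for SF3B1.

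The first question was how Cisplatin changed these genes. Over both cell populations, 5 of the 10 genes rose (SF3A3, SF3A2, SF3B4, SF3A1 and SF3B2, log2 fold changes 0.30 to 0.50) and SF3B5 fell by 0.12, in edgeR's quasi-likelihood test with Benjamini-Hochberg adjustment over all genes tested. These 6 of 10 calls stand beside 66.8% of all 15352 genes called in the same test, 34.8% higher and 32.1% lower. The members' median log2 fold change was 0.13, beside 0.03 over all genes, and no member changed as much as 2-fold, a limit that 21.5% of all genes passed. The call for SF3B5 (adjusted p = 0.0489) was lost with 7 of the 12 libraries left out singly, with the replicate number as a block (adjusted p = 0.0703), and with library-size scaling, where its log2 fold change was -0.03. Without both shControl replicate 2 libraries PHF5A (-0.19, adjusted p = 0.00841) and U2AF2 (-0.16, adjusted p = 0.00940) fell and SF3B5 did not pass (adjusted p = 0.0608).

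All 3 genes of SF3A rose with Cisplatin. SF3A1, the subunit of SF3A to which both others bind, was at 5488, 3749 and 5150 normalized counts in untreated and 7040, 6616 and 7005 in Cisplatin-treated shControl cells, and at 5846, 5754 and 5779 in untreated and 6831, 6560 and 6944 in Cisplatin-treated shRNF113A cells (replicates 1, 2 and 3 in each case). The treated libraries lay above the untreated libraries in both populations, and replicate 2 was the lowest in untreated shControl cells. The log2 fold change was 0.54 (SE 0.11, adjusted p = 0.00126) in shControl cells and 0.27 (SE 0.11, adjusted p = 0.04997) in shRNF113A cells, and the second value was so near the threshold that the call was lost with 10 of the 12 libraries left out singly and with DESeq2 (adjusted p = 0.0950). Without both shControl replicate 2 libraries the change in shRNF113A cells was again 0.27 and passed in edgeR (adjusted p = 3.55e-04).

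SF3A2, a zinc finger protein that contacts the U2 snRNA and the branch region, was at 1652, 1358 and 1823 normalized counts in untreated and 2200, 2089 and 2103 in Cisplatin-treated shControl cells. In shRNF113A cells it was at 1674, 2095 and 1782 without and 2411, 2354 and 2514 with Cisplatin. Both populations rose by similar amounts, with log2 fold changes of 0.42 (SE 0.11, adjusted p = 0.00551) and 0.43 (SE 0.11, adjusted p = 0.00396). SF3A3, the other zinc finger subunit, was at 5103, 3496 and 5055 in untreated and 7915, 5838 and 7672 in Cisplatin-treated shControl cells, and the log2 fold change of 0.67 (SE 0.14, adjusted p = 0.00184) was the highest of the 10 genes in that comparison. In shRNF113A cells SF3A3 was at 4823, 4251 and 5069 without and 5874, 5764 and 5744 with Cisplatin, so that the groups did not overlap but the test was missed (log2 fold change 0.34, adjusted p = 0.0574). Without both replicate 2 libraries of shControl, which enter the shared estimate of the spread, the same change of 0.34 passed (adjusted p = 1.7e-04), as it did with the replicate number as a block (0.35, adjusted p = 0.00980).

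In SF3B, SF3B2 and SF3B4 rose, and the other 4 genes showed no rise in either population that passed the test. SF3B2, which binds the pre-mRNA upstream of the branch point together with SF3B4, was at 13496, 10319 and 12476 normalized counts in untreated and 15732, 14460 and 14795 in Cisplatin-treated shControl cells (log2 fold change 0.33, SE 0.09, adjusted p = 0.00801). In shRNF113A cells it was at 11966, 11859 and 12189 without and 14002, 13335 and 14652 with Cisplatin (log2 fold change 0.27, SE 0.09, adjusted p = 0.0215). Every treated library lay above every untreated library in both populations.

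SF3B4, a protein with RNA recognition motifs, had its highest counts where Cisplatin and depletion met. It was at 6474, 5172 and 6576 normalized counts in untreated shControl cells, 7412, 6762 and 7245 in Cisplatin-treated shControl cells, 6639, 6704 and 7012 in untreated shRNF113A cells, and 9280, 8793 and 11479 in Cisplatin-treated shRNF113A cells. Each of the last 3 libraries was above every other library. The Cisplatin change was 0.58 on the log2 scale in shRNF113A cells (SE 0.11, adjusted p = 6.2e-04) and 0.25 in shControl cells (SE 0.11, adjusted p = 0.0721). With the replicate number as a block, in which the shControl libraries are paired, the change of SF3B4 in shControl cells passed (log2 fold change 0.26, adjusted p = 0.0265). Without both shControl replicate 2 libraries that change was smaller and did not pass in edgeR (0.19, adjusted p = 0.111).

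SF3B1, SF3B3, SF3B5 and PHF5A showed smaller or less certain differences. SF3B1 was at 15942, 8063 and 12837 normalized counts in untreated and 14402, 7250 and 13573 in Cisplatin-treated shControl cells, and at 11805, 11429 and 11861 in untreated and 11125, 11017 and 10735 in Cisplatin-treated shRNF113A cells. The shRNF113A libraries differed little among themselves, whereas in shControl cells replicate 2 was the lowest by far with and without Cisplatin. The Cisplatin change was -0.05 in both populations, with a 95% confidence interval of -0.58 to 0.48 in each on the log2 scale, so that changes of moderate size in either direction could not be told apart from none. All 12 libraries share the estimate of the spread, so the interval in shRNF113A cells also holds the spread of shControl libraries. The treated shRNF113A libraries all lay below the untreated ones. Without both shControl replicate 2 libraries the edgeR changes were -0.02 (adjusted p = 0.853) in shControl and -0.05 (adjusted p = 0.523) in shRNF113A cells. SF3B3, a protein with beta-propeller domains, ranged from 9449 to 12194 over the shControl libraries and from 8891 to 11140 over the shRNF113A libraries. In shRNF113A cells its treated libraries all lay below the untreated ones, with a log2 fold change of -0.15 that passed the test only without both shControl replicate 2 libraries (adjusted p = 0.0433).

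SF3B5, the smallest subunit listed here and the product of a gene with 1 exon, was the steadiest of the 10, at 2800 to 3465 normalized counts over all 12 libraries. The SD of its log2 level over the libraries was 0.09, lower than that of all but 1.32% of well-expressed genes, and SF3B3 followed with 0.12. PHF5A, a zinc finger protein, ranged from 1484 to 1970, and its Cisplatin change in shControl cells of -0.13 (adjusted p = 0.309) became -0.25 (adjusted p = 0.0135) without both replicate 2 libraries. SF3A3 and SF3B1 had the widest spreads, with SDs of 0.33 and 0.32, and SF3B4 was also at 0.32. These SDs include both shControl replicate 2 libraries.

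U2AF2 showed no Cisplatin change that passed the test. Its counts were 16382, 11554 and 16762 in untreated and 15678, 14270 and 14839 in Cisplatin-treated shControl cells, and 19500, 21095 and 20085 in untreated and 17361, 16623 and 17525 in Cisplatin-treated shRNF113A cells. In the depleted cells the treated libraries lay below the untreated ones (log2 fold change -0.19, adjusted p = 0.168), and without both shControl replicate 2 libraries the same value passed (-0.19, adjusted p = 0.00696). In all, 4 of 10 members passed for Cisplatin in shControl cells, beside 55% of all genes, and 4 of 10 in shRNF113A cells, beside 60.2%. The second count was 2 with any of 4 shRNF113A libraries left out (untreated replicates 1 and 2, Cisplatin-treated replicates 1 and 3), and 7 without both shControl replicate 2 libraries. The share of all genes called in those refits is not given here, so the counts of 2 and 7 do not set the members apart.

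**Figure D2:**
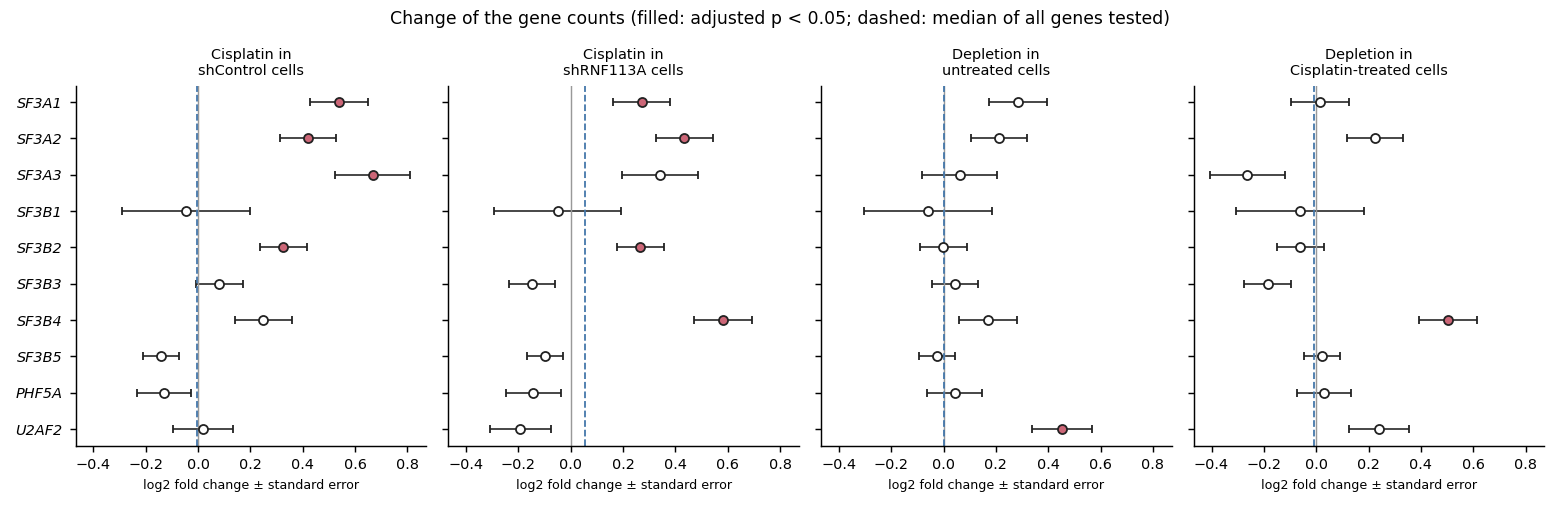
Log2 fold change of the counts of each gene (x axis, bars of 1 standard error) in 4 comparisons, each with one factor held constant. Filled points passed an adjusted p of 0.05 and the dashed line marks the median of all 15352 genes. SF3A1, SF3A2 and SF3B2 are filled in both Cisplatin comparisons, U2AF2 alone is filled for depletion in untreated cells, and SF3B4 alone for depletion in Cisplatin-treated cells.

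The second question was how the depletion of RNF113A changed the genes. Over both treatments U2AF2 (log2 fold change 0.35, adjusted p = 0.00489), SF3B4 (0.34, adjusted p = 0.00750) and SF3A2 (0.22, adjusted p = 0.0291) rose and no member fell, which was 3 of 10 beside 47.5% of all genes called in either direction. The call for SF3A2 was lost with 7 of the 12 libraries left out singly, and without both shControl replicate 2 libraries (adjusted p = 0.0683). In the latter fit SF3A3 (-0.25, adjusted p = 0.00694) and SF3B1 (-0.30, adjusted p = 7.5e-04) fell, so that the absence of a fall rested on those libraries. In untreated cells U2AF2 was the only member that passed (1 of 10, beside 27.4% of all genes), with 19500 to 21095 normalized counts in shRNF113A cells above 11554 to 16762 in shControl cells (log2 fold change 0.45, SE 0.12, adjusted p = 0.0126). Without both shControl replicate 2 libraries the change of U2AF2 was smaller but passed (0.30, adjusted p = 0.00161), with untreated replicate 2 as the library that set its size. The call was lost without untreated shRNF113A replicate 2, at much the same fold change (0.42, adjusted p = 0.0529), and no member passed then. SF3A1 (log2 fold change 0.28, adjusted p = 0.0754) passed with untreated shControl replicate 1 left out, and with the replicate block (0.30, adjusted p = 0.0413), but was at 0.14 (adjusted p = 0.0879) without both shControl replicate 2 libraries.

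In Cisplatin-treated cells SF3B4 was the only member that passed (1 of 10, beside 42.9% of all genes), with 8793 to 11479 normalized counts in shRNF113A cells above 6762 to 7412 in shControl cells (log2 fold change 0.50, SE 0.11, adjusted p = 0.00331). The count of members was 4 without both shControl replicate 2 libraries, since SF3A3 (-0.39, adjusted p = 2.3e-04), SF3B1 (-0.32, adjusted p = 0.00286) and U2AF2 (0.20, adjusted p = 0.0144) then passed. It was also 4 without the untreated shControl replicate 2 alone and 2 without the Cisplatin-treated one. The share of all genes called in these refits is not given here, so these counts do not set the members apart. SF3B1 was likewise lower in untreated depleted cells when both shControl replicate 2 libraries were left out (-0.29, adjusted p = 0.00793), against -0.06 with them (adjusted p = 0.880).

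SF3B2 mRNA hardly differed between depleted and control cells, with log2 fold changes of -0.0004 (95% confidence interval -0.19 to 0.19) without and -0.06 (-0.25 to 0.13) with Cisplatin. Whether the Cisplatin change itself differed between the 2 populations was tested by the interaction term. In edgeR no member passed (0 of 10, with 0 at an unadjusted p under 0.05 and 0 by DESeq2), beside 4.25% of all genes. SF3B4 had the highest term, 0.33 on the log2 scale (95% confidence interval -0.01 to 0.67, adjusted p = 0.240), and SF3A3 the lowest, -0.33 (-0.77 to 0.12, adjusted p = 0.389). Without both shControl replicate 2 libraries the term of SF3B4 was 0.39 and passed (adjusted p = 0.0448), in a fit in which 17% of all genes passed.

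Other genes of the U2 snRNP and of 3′ splice site recognition were measured in the same fits. Of 24 such genes, 12 rose and 3 fell with Cisplatin over both populations, and 4 rose and 1 fell with depletion, beside 34.8% higher and 32.1% lower of all genes with Cisplatin and 23.5% and 24% with depletion. Without both shControl replicate 2 libraries 5 fell with Cisplatin and 2 with depletion. Among the 8 genes listed first, SNRPA1, a protein of the U2 core, rose with Cisplatin (log2 fold change 0.36, adjusted p = 7.4e-05), as did the helicase DDX42 (0.18, adjusted p = 0.0484), while DDX46, the helicase that acts on SF3B and the branch point, fell by 0.34 (adjusted p = 2.1e-04). SNRPB2, SF3B6, U2AF1, SF1 and PUF60 had Cisplatin values between -0.08 and -0.0003 that did not pass. U2AF1, the small subunit that pairs with U2AF2 and reads the AG, fell by 0.21 with depletion (adjusted p = 0.0171), while U2AF2 rose. Of 24 other snRNP proteins (U1, Sm and U4/U6.U5), 8 rose and 11 fell with Cisplatin, where the 8 became 3 without Cisplatin-treated shControl replicate 1 and 3 to 8 over all single libraries left out, with a median of -0.09 beside 0.18 for the 24 U2-related genes and 0.13 for the 10 members.

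The genes whose profiles over the 12 libraries lay closest to SF3B1, by the root mean square difference of centred log2 CPM, were CLIP4 (0.08), CHML (0.10) and UBE3C (0.10), where the median over 9778 other genes was 0.41. Closest to SF3B2 were CRNKL1 (0.06), EIF2S1 (0.06) and WBP11 (0.06), with a median of 0.31. Among the members themselves SF3A1 was the nearest to SF3B2 (0.13), whereas the nearest to SF3B1 was U2AF2 (0.30). These profiles include both shControl replicate 2 libraries, in which SF3B1 was at 8063 and 7250 normalized counts, its lowest values. The part of those libraries in the closeness was not tested.

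The third question was whether introns remained in the transcripts of these genes. Intronic reads, taken as the reads over a whole gene less those over its exons, were compared with exonic reads of the same library. SF3B5 has no intron in the deposited annotation, and the other 9 members passed the filter of at least 10 intronic and 10 exonic reads in every library, as did 9557 genes in all. The members held few intronic reads for genes of this table, with a median of 1.86 per 100 exonic reads in untreated shControl cells beside 6.31 over all genes, and 1.79, 2.51 and 4.29 in the Cisplatin-treated shControl, untreated shRNF113A and Cisplatin-treated shRNF113A cells beside 7.93, 8.83 and 15.6. SF3A1, SF3A2 and SF3B2 overlap a gene on the opposite strand, and the strand setting of these counts is not given in the sources used here, so part of their intronic reads could come from that gene.

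Cisplatin in depleted cells, and depletion in Cisplatin-treated cells, each came with more intronic reads in all 9 genes. Most genes tested rose as well, with 69.7% and 88.2% of all genes called higher in these 2 comparisons. U2AF2 had 3.30, 2.79 and 3.43 intronic reads per 100 exonic reads in untreated shControl cells (replicates 1, 2 and 3), 3.45, 3.01 and 5.72 in Cisplatin-treated shControl cells, 4.45, 5.28 and 3.75 in untreated shRNF113A cells, and 10.1, 10.7 and 10.9 in Cisplatin-treated shRNF113A cells. The last 3 libraries lay well above all others. The log2 change of the ratio with Cisplatin in shRNF113A cells was 1.24 (SE 0.20, adjusted p = 2.7e-05), and with depletion in Cisplatin-treated cells 1.43 (SE 0.20, adjusted p = 9.3e-06), while the changes with Cisplatin in shControl cells (0.30, adjusted p = 0.306) and with depletion in untreated cells (0.49, adjusted p = 0.0630) did not pass.

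SF3B4 had the highest change of the 9 with depletion, without and with Cisplatin. Its values were 1.54, 1.43 and 1.33 per 100 exonic reads in untreated and 1.57, 1.01 and 1.83 in Cisplatin-treated shControl cells, and 2.19, 2.60 and 2.59 in untreated and 4.52, 4.89 and 5.69 in Cisplatin-treated shRNF113A cells. Depletion raised the ratio of SF3B4 in untreated cells (log2 change 0.78, SE 0.21, adjusted p = 0.0128) and in Cisplatin-treated cells (1.79, SE 0.20, adjusted p = 1.6e-06), and its groups did not overlap in either comparison. The SF3B4 count rose in the same condition, so that more intronic reads came with more and not with fewer exonic reads in this gene.

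SF3A2 had the most intronic reads per 100 exonic reads of the members, with 8.78, 6.59 and 7.08 in untreated shControl cells and 18.4, 18.9 and 19.4 in Cisplatin-treated shRNF113A cells. Per base, the coverage of its introns was 1.51% of that of its exons in the former and 3.83% in the latter, and only SF3B4, at 4.06%, was higher in Cisplatin-treated shRNF113A cells. In untreated cells depletion raised the ratio of SF3A2 (log2 change 0.53, adjusted p = 0.0469) and SF3A3 (0.57, adjusted p = 0.0389), both of which lost the call with 8 of the 12 libraries left out singly, while SF3B4 lost it without untreated shRNF113A replicate 2 (0.73, adjusted p = 0.0660). With the replicate block the adjusted p of SF3A2 was 0.0536. Without both shControl replicate 2 libraries SF3A2 (0.46, adjusted p = 0.0539) and SF3A3 (0.43, adjusted p = 0.0771) lost the call in edgeR. SF3B2 passed in that fit (0.415, adjusted p = 0.0484), against 0.42 with those libraries (adjusted p = 0.0715). Counts for this comparison were 3 of 9 members higher, beside 34.3% of all genes, with a median of 0.43 for the members and 0.47 over all genes. Without 1 library the count ranged from 0, without untreated shRNF113A replicate 2, to 6, without Cisplatin-treated shControl replicate 2 or 3. Over the same single libraries left out, the count ranged from 0 to 15 among the other U2-related genes and from 0 to 16 among the other snRNP proteins.

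In Cisplatin-treated cells depletion raised the ratio in 9 of 9 members, beside 88.2% of all genes, with a members' median of 1.18 and a median of 0.96 over all genes. The changes were 1.23 for SF3A1, 1.20 for SF3A2, 1.18 for SF3A3, 1.03 for SF3B2 and 1.00 for SF3B3, with SEs of 0.18 to 0.24. PHF5A (0.55, adjusted p = 0.0271) and SF3B1 (0.46, adjusted p = 0.0153) changed least. For PHF5A the groups overlapped, at 4.40, 3.56 and 7.18 intronic reads per 100 exonic reads in shControl and 7.61, 6.86 and 7.08 in shRNF113A cells, and its call was lost without both shControl replicate 2 libraries (0.31, adjusted p = 0.151). It was also lost without Cisplatin-treated shControl replicate 1 or 2 or shRNF113A replicate 1 or 3, and that of SF3B1 without Cisplatin-treated shRNF113A replicate 1 or 3 (adjusted p = 0.0849 and 0.0604). Without Cisplatin-treated shControl replicate 3 the change of PHF5A was 0.87, and 0.31 without replicate 2.

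**Figure D3:**
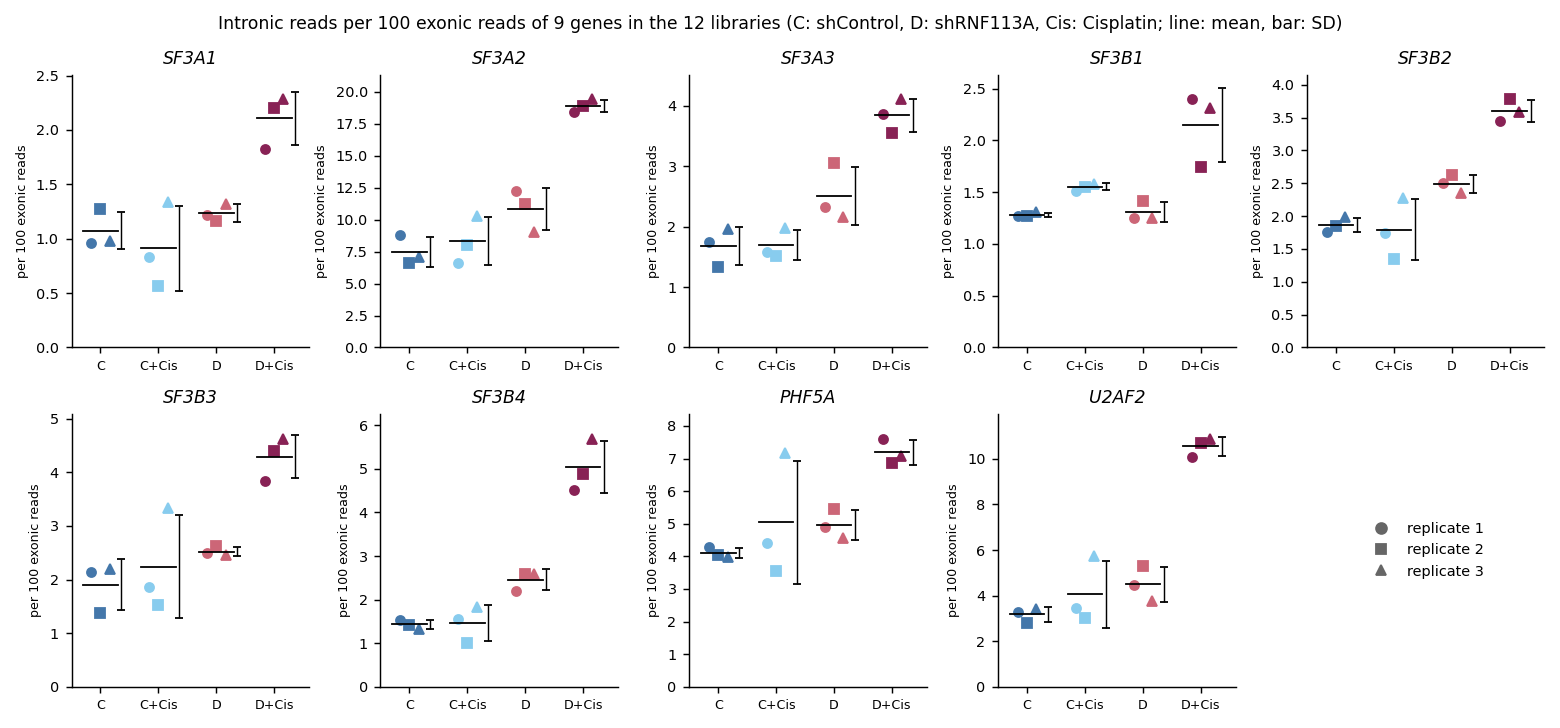
Intronic reads per 100 exonic reads (y axis, from 0) of the 9 members with introns in the 4 conditions (x axis), with a symbol per replicate, a line at the mean and a bar of 1 SD. For 8 of the genes all 3 Cisplatin-treated shRNF113A libraries lie above all other libraries, PHF5A being the exception, and the triangle of Cisplatin-treated shControl replicate 3 is the highest of its group in every panel. Neither order was counted over all genes. With depletion in Cisplatin-treated cells 88.2% of all genes had a higher ratio at an adjusted p under 0.05 in edgeR.

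Cisplatin raised the ratio in 9 of 9 members in shRNF113A cells, beside 69.7% of all genes, with medians of 0.76 for the members and 0.74 over all genes. PHF5A (0.53, adjusted p = 0.0388) lost this call with 5 of the 6 shRNF113A libraries left out singly, and SF3A3 (0.62) without untreated shRNF113A replicate 3 (adjusted p = 0.0505). In shControl cells edgeR called none (0 of 9, with 0 at an unadjusted p under 0.05), beside 19.8% of all genes in either direction, and the members' median of 0.14 compared with 0.28 over all genes. Without Cisplatin-treated shControl replicate 2, U2AF2 passed in that comparison (log2 change 0.49, adjusted p = 0.0268). The interaction of Cisplatin and depletion tests the difference between these effects. In edgeR it passed for 0 of 9 members (6 at an unadjusted p under 0.05), beside 3.85% of all genes. It was above 0 in all 9 members and in 8835 of all 9557 genes, with medians of 0.61 and 0.47. It was highest for SF3B4 (1.02, SE 0.29, adjusted p = 0.0509), SF3A1 (1.01, SE 0.35, adjusted p = 0.0821) and U2AF2 (0.94, SE 0.29, adjusted p = 0.0607).

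The interaction moved with single shControl libraries. Cisplatin-treated shControl replicate 3 had the highest ratio of its group in all 9 genes, an order that was not counted over all genes. Its share of read pairs lying on no gene feature was also the highest among the shControl libraries (6.78%, against 4.55% to 5.33% in the other 5). Without that replicate the interaction passed for 8 of 9 members, SF3B1 being the exception (adjusted p = 0.0736), and for 54.8% of all genes. U2AF2 then reached 1.22 (adjusted p = 5.8e-04) and SF3A1 1.37 (adjusted p = 0.00148). U2AF2 also passed without untreated shControl replicate 2 (1.03, adjusted p = 0.0454). Without Cisplatin-treated shControl replicate 2 the terms were smaller, at 0.04 for PHF5A, 0.32 for SF3B3 and 0.29 for the median over all genes, and no member passed. Without both shControl replicate 2 libraries it passed for 2 of 9, SF3B4 (0.79, adjusted p = 0.0426) and U2AF2 (0.83, adjusted p = 0.0169), beside 10.9% of all genes, and with the replicate block for SF3B4 (1.02, adjusted p = 0.0468). The part of the share of read pairs on no gene feature in these ratios was not tested.

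**Figure D4:**
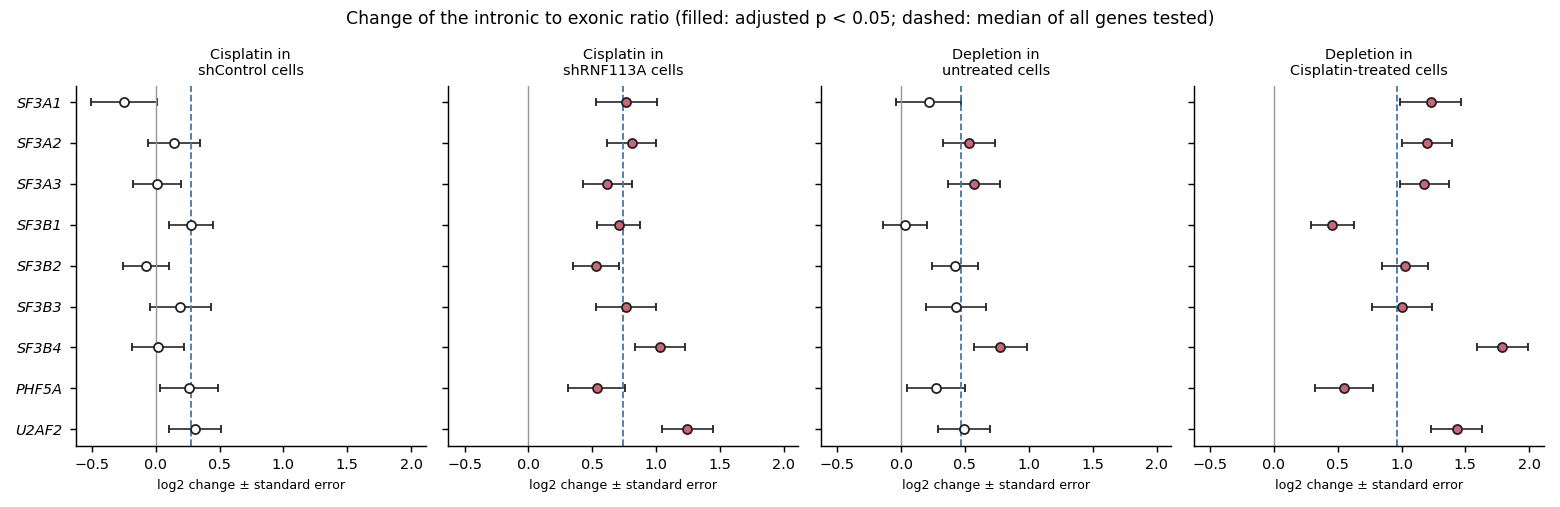
Log2 change of the intronic to exonic ratio (x axis, bars of 1 standard error) of the 9 members with introns in 4 comparisons. Filled points passed an adjusted p of 0.05, and the dashed line is the median of all 9557 genes. All 9 points are filled in the panels of Cisplatin in shRNF113A cells and of depletion in Cisplatin-treated cells, where the median of all genes is 0.74 and 0.96, and none in the panel of Cisplatin in shControl cells.

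The same reading for the listed relatives gave, with depletion in Cisplatin-treated cells, 18 of 19 tested U2-related genes and 23 of 23 tested other snRNP genes with a higher ratio, beside 88.2% of all genes, with medians of 1.15 and 1.12. U2AF1 (1.46, adjusted p = 5.0e-05) and PUF60 (1.49, adjusted p = 4.1e-06), which binds pyrimidine tracts as U2AF2 does, were near the value of U2AF2. SF3B6, the SF3B subunit not among the 10, was at 1.12 (adjusted p = 9.99e-04).

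Splicing events of the members were counted in the tables of the event caller rMATS, which give reads for the inclusion form and the skipping form in each library. The tables held 102 distinct events of the members, 74 skipped exons, 21 pairs of mutually exclusive exons, 2 retained introns, 3 alternative 3′ and 2 alternative 5′ splice sites. SF3B3 had 33 events, SF3A3 21, U2AF2 14, SF3B1 12, SF3B2 11, PHF5A 6, SF3A2 3 and SF3A1 2, while SF3B4 and SF3B5 had none. Nearly all skipped exons of the members were constitutive in these cells: for Cisplatin in shControl cells 41 of 46 tested exons were included in at least 95% of transcripts in both groups, and in the comparisons of Cisplatin in shRNF113A cells, depletion in untreated cells and depletion in Cisplatin-treated cells the counts were 56 of 60, 49 of 53 and 46 of 51. The values of mutually exclusive exons lay near 50% where both exons of the pair are consecutive exons of the same transcript, so they were not read as a choice between exons.

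Few events of the members passed, as was so of events in general. With an inclusion against skipping test in edgeR, adjusted over the events of a category, 0 of 63 events passed for Cisplatin in shControl cells, 0 of 83 for Cisplatin in shRNF113A cells, 1 of 72 for depletion in untreated cells and 0 of 69 for depletion in Cisplatin-treated cells, beside 0.529%, 2.61%, 0.906% and 2.32% of all events. At an unadjusted p under 0.05 the counts were 3, 10, 5 and 3. With a further limit of 0.2 between the mean inclusion levels, 0 events of the members passed, beside 0.0681%, 0.283%, 0.058% and 0.172% of all events. Of the events tested, 54, 67, 62 and 60 differed by less than 1 percentage point.

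The 1 event that passed was the 79-nt intron 6 of SF3A2, chr19:2246802-2246880, whose splice sites are printed above. It was retained in 1.55%, 0.91% and 1.38% of transcripts in the untreated shControl libraries and in 3.2%, 2.87% and 2.79% in the untreated shRNF113A libraries (the tables do not say which replicate is which). The groups did not overlap, and the log2 odds rose by 1.21 (SE 0.43, adjusted p = 0.0356), where 17.4% of all retained introns passed. The values rested on 5 to 10 and 17 to 24 inclusion reads per library, and the call was lost with 5 of the 6 libraries left out singly. With Cisplatin the intron was retained in 1.60% ± 0.52 of SF3A2 transcripts in shControl and 2.32% ± 0.68 in shRNF113A cells (adjusted p = 0.366). In that comparison 26% of all retained introns passed, and the whole-gene intronic ratio of SF3A2 rose as given above.

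The other retained intron belongs to SF3B1. It spans 1476 nt, chr2:198283676-198285151, between exon 4 and a 56-nt exon that only a transcript annotated for nonsense-mediated decay contains, so that its skipping form is rare. Its inclusion level was 84.9% ± 8.20 and 90.5% ± 4.88 in shControl cells without and with Cisplatin and 65.7% ± 5.56 and 88.3% ± 14.6 in shRNF113A cells, but only 0 to 5 reads per library supported skipping. This level sets the intron only against splicing into the 56-nt exon. Splicing past that exon, with 259 to 610 reads per library, is left out. The level is therefore not the share of SF3B1 transcripts that keep the intron. No comparison passed, though the difference was 22.5 percentage points with Cisplatin in shRNF113A cells (adjusted p = 0.120) and -19.2 with depletion in untreated cells (adjusted p = 0.194). The level of the 56-nt exon itself was 0.29% ± 0.10, 0.52% ± 0.27, 0.92% ± 0.37 and 0.87% ± 0.42 in the 4 conditions in the same order, from 1 to 8 inclusion reads per library.

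At the alternative sites printed above, the members used 1 form by a wide margin, except at U2AF2 exon 10. There the long form, which uses the GC donor, made up 19.9% ± 1.91 of U2AF2 transcripts in untreated and 18.02% ± 1.43 in Cisplatin-treated shControl cells, and 22.3% ± 1.56 in untreated and 19.5% ± 1.45 in Cisplatin-treated shRNF113A cells. These values came from 269 to 494 long-form reads per library, and the groups differed by 1.47 to 2.77 percentage points (adjusted p = 0.595 to 0.831). The reference transcript of U2AF2 is the long form, so the form in the minority here is the one used as reference.

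The long forms of SF3B2, with the upstream acceptor, held 93.4% to 95.7% at exon 5, 96.1% to 97.5% at exon 7 and 99.0% to 99.3% at exon 20 as means of the 4 conditions. The widest difference was at exon 5 with Cisplatin in shRNF113A cells, 95.7% ± 0.76 against 93.4% ± 0.35, where the groups did not overlap and the adjusted p was 0.423. The long form of PHF5A exon 2 was at 0.64% ± 0.43, 1.92% ± 0.06, 1.24% ± 0.71 and 1.61% ± 0.16 in untreated and Cisplatin-treated shControl and untreated and Cisplatin-treated shRNF113A cells. Its difference with Cisplatin in shControl cells had an unadjusted p of 0.0044 and an adjusted p of 0.183, and rested on 1 to 7 against 11 to 17 reads.

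A few exons outside the reference transcripts were included at low levels. SF3B3 had a 154-nt exon after exon 1, at 3.47% to 4.62%, and a 29-nt exon after exon 11 that belongs to a transcript annotated for nonsense-mediated decay, at 1.95% ± 1.21 and 3.51% ± 0.90 in shControl and 2.71% ± 0.73 and 3.95% ± 0.36 in shRNF113A cells without and with Cisplatin. U2AF2 had a 120-nt exon of the same kind after exon 1, at 1.64% ± 0.57 and 2.35% ± 0.15 in shControl and 1.76% ± 0.18 and 3.00% ± 0.53 in shRNF113A cells. The means of the 29-nt and the 120-nt exon were higher with Cisplatin in both populations, and none of these 4 differences passed (adjusted p = 0.335 to 0.712).

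**Figure D5:**
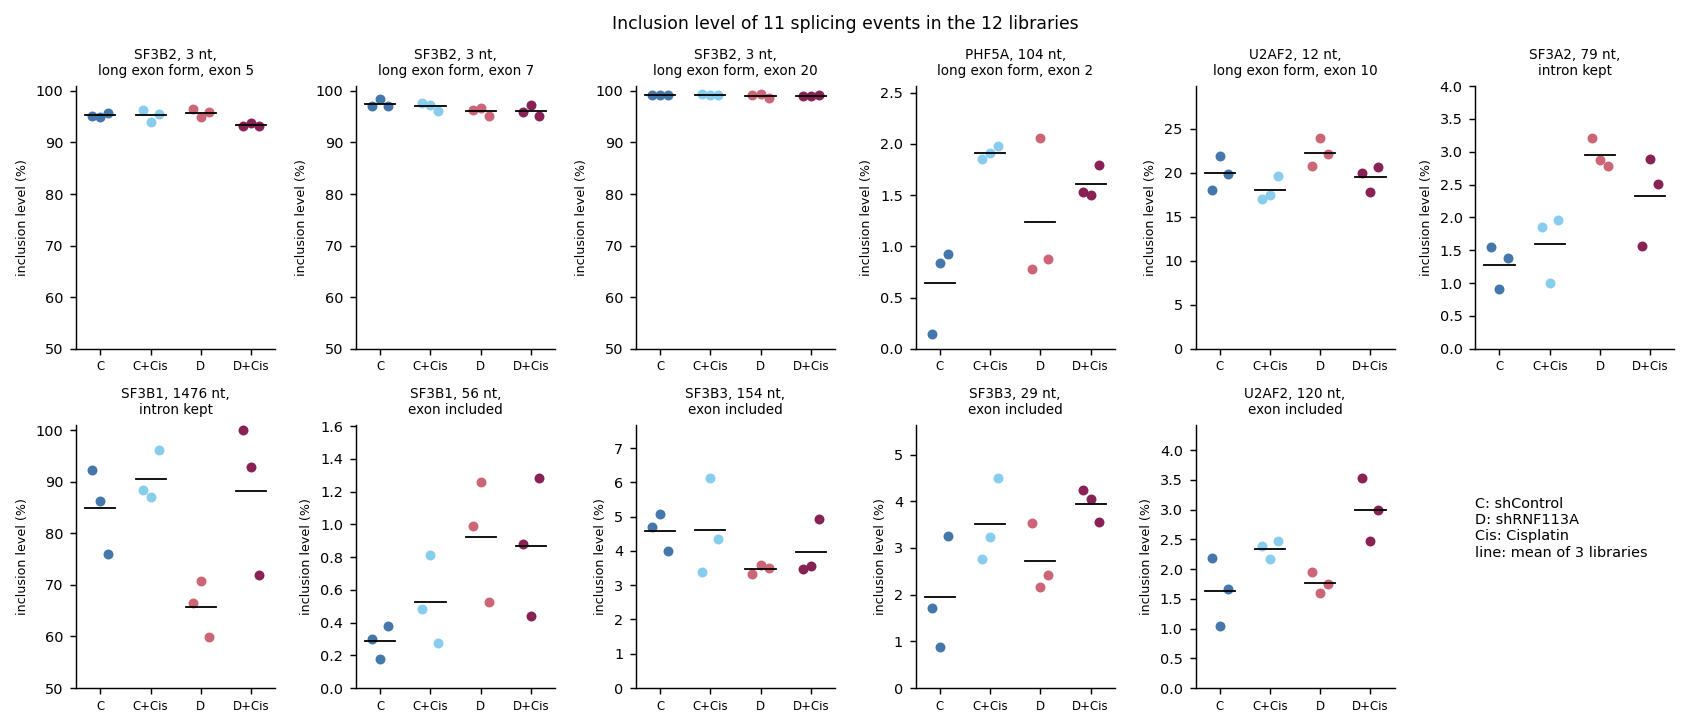
Inclusion level in percent (y axis) of 11 splicing events of SF3A2, SF3B1, SF3B2, SF3B3, PHF5A and U2AF2 in the 4 conditions (x axis), with a point per library and a line at the mean. Panels of events above 50% start at 50 and the others at 0, and the retained 79-nt intron of SF3A2 lies higher in untreated shRNF113A than in untreated shControl cells in every library.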

How the data were processed

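Stranded poly(A) libraries were aligned by the authors with STAR 2.5.2b to hg19, and the deposited counts per gene are whole-number read counts, of which the reverse-strand column was used. Deposited exon and gene counts were made by the authors with HTSeq on protein-coding genes of Gencode. The rMATS tables hold the authors' inclusion and skipping read counts for each library; their p-value and difference columns were not used. The authors' unfiltered counts were tested here with edgeR 4.0.16 (R 4.3.3, TMM, filterByExpr, quasi-likelihood test, Benjamini-Hochberg adjustment over all genes, all 12 libraries in the fits of expression and intronic reads and the 6 of a comparison in those of splicing); the models were Cisplatin plus depletion, and the same with their interaction. Intronic against exonic reads, and inclusion against skipping reads, were tested with a term per library, with at least 10 reads in every library. The models were tested on simulated data. Levels per kilobase use the joint length of all exons of a gene in the deposited annotation. Exon numbers come from the MANE transcripts of a newer Gencode annotation lifted to GRCh37. The sites of 144 introns were read from GRCh37 to check the build. Across genes, deviations of same-numbered shControl libraries from their group means correlated (r = 0.632, 0.731 and 0.480 for replicates 1, 2 and 3), a pairing seen in the data and not stated in the labels; for the shRNF113A libraries r was 0.406, -0.065 and 0.299, and these share only a number. The fits above hold no block, and the alternative with the replicate number as a block applies it to all 12 libraries.

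The 10 members and the gene lists were chosen with earlier results of these data known, and the 11 events shown after their values were seen. Leaving out both shControl replicate 2 libraries and the interaction of the intronic ratio were added after seeing the data. Alternatives were unstranded counts, library-size scaling, DESeq2 1.42.0, other filters, the replicate block and leaving out each library. All 10 members and RNF113A are named, with the first 8 of the U2-related list and the 3 genes closest in profile to SF3B1 and SF3B2.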

Additional observations from a re-analysis of the deposited data

How the results depend on the processing

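No member result that passed the test changed sign under any alternative run. Some that missed it did with a library left out, such as the intronic ratio of SF3B3 with Cisplatin in shControl cells (0.19, lowest -0.16). Without both shControl replicate 2 libraries, members called numbered 1 for the expression interaction, 7 for Cisplatin in shRNF113A cells, 2 for depletion in untreated cells, 4 for depletion in Cisplatin-treated cells and 2 for the interaction of the intronic ratio. For this fit the share of all genes called was given above for the interactions only, so the other counts do not set the members apart. Library-size scaling gave 2 for depletion in untreated cells, and DESeq2 gave 2 for depletion in Cisplatin-treated cells. The replicate block, in which same-numbered libraries are paired, gave 2 for depletion in untreated cells and 1 for the interaction of the intronic ratio, and moved no other count of members by over 1.5 times. A limit of 0.1 between inclusion levels left 0 of the splicing calls for depletion in untreated cells.

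With single libraries left out, expression calls ranged from 5 to 7 for Cisplatin and 2 to 3 for depletion with both factors in an additive model, 0 to 0 for the interaction, 4 to 5 for Cisplatin in shControl cells, 2 to 6 in shRNF113A cells, 0 to 2 for depletion in untreated and 1 to 4 in Cisplatin-treated cells. Intronic calls ranged from 0 to 1, 7 to 9, 0 to 6 and 7 to 9 in the last 4 comparisons and from 0 to 8 for the interaction, and splicing calls from 0 to 1 for Cisplatin in shRNF113A cells and for depletion in untreated cells and stayed at 0 in the other 2 comparisons. The causes were not tested, and these ranges are counts of members without the share of all genes. No paired analysis was possible for splicing because the tables do not name the replicates. Levels near 1% rest on few reads.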
